A study of Mus musculus with 80 samples.

Results

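The 10 genes described here act where long-chain fatty acids enter a liver cell and are attached to coenzyme A. They are the fatty acid translocase Cd36, the fatty acid transport proteins Slc27a1, Slc27a2, Slc27a4 and Slc27a5, the liver fatty acid binding protein Fabp1, and the long-chain acyl-CoA synthetases Acsl1, Acsl3, Acsl4 and Acsl5. They were taken by symbol from the 78275 genes listed in the table of read counts, without the use of any measured value. All 10 had enough counts to be among the 21187 genes that were tested. The libraries came from livers of C57BL/6J mice, an inbred strain, of both sexes, bought at 8 to 12 weeks of age and kept on standard chow, first under a light–dark cycle and then in constant darkness. Mice were either left with food throughout (control, fed ad libitum) or had it taken away at circadian time (CT) 10 (fasted). A piece of the left lobe was taken at 10 times, 4 h apart, the earliest at CT8 and the latest at CT44. Each treatment and time had 2 males and 2 females, which gave 80 libraries of polyadenylated RNA, each from a different mouse. At CT8 the fasted group still had food, and the later fasted mice had been without food for 2 h (CT12) to 34 h (CT44). The titles of the libraries give another sex than the detailed labels in 40 libraries and another treatment in 40, and the titles were used.

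Libraries held 25534901 to 59927771 counts on genes. The sex in the title went with the sex-linked genes in 80 of 80 libraries. Fgf21, a hormone gene induced by fasting, and Srebf1, a lipogenic regulator, checked the treatment, with mean log2 changes of 3.95 and -3.13 in the fasted libraries. The hepatocyte gene Alb had a mean level of 66960 CPM in controls (CPM being the counts of a gene scaled to a common library size of 1000000). The control CT8 female 2 library stood apart with 31.3% of its counts on ribosomal RNA genes, against at most 4.88% in the others. The fasted CT40 female 2 and fasted CT44 female 1 libraries also stood apart from their groups. Their median distance from the other 3 libraries of the same treatment and time was 0.42 and 0.288 on the log2 scale, where the median over all libraries was 0.143. Calls lost without these libraries are given beside the results. The libraries come from whole pieces of liver, so that fewer cells of a type and less RNA per cell cannot be told apart.

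Long-chain fatty acids reach hepatocytes from the blood, above all when adipose tissue releases them during a fast. Cd36 is a membrane receptor that binds and takes up fatty acids, and the Slc27a proteins take up fatty acids and carry acyl-CoA synthetase activity of their own, that of Slc27a5 being directed mainly at bile acids. Fabp1 carries fatty acids within the cytosol. The Acsl enzymes form the acyl-CoA from which either β-oxidation or the synthesis of triglycerides and phospholipids starts, and several of these genes are textbook targets of PPAR-alpha, the nuclear receptor that senses fatty acids in the fasted liver.

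PPAR-alpha binds with RXR to a direct repeat of the letters AGGTCA with 1 base between the repeats. The 250 bases before each transcription start were searched on both strands for AGGTCANAGGTCA with at most 2 mismatches, for AGGTCA alone, which can lie within the repeat, and for the E-box CACGTG, the letters bound by the clock proteins. Promoters from RefSeq (GRCm38.p6) were matched for 9 of the 10 genes, with 12 starts, and Slc27a5 had no entry. The repeat was found in Cd36 and in Fabp1 and in 3.24% of all 32851 promoters. AGGTCA alone was found in Cd36, Fabp1 and Slc27a2, and in 14% of all promoters. The E-box was found at the third of the Slc27a1 starts and in 6.02% of all promoters. The 3 windows are shown because they hold these letters before Cd36 and Slc27a1, which rose with fasting, and before Fabp1, which fell. Capitals mark the matches.
Cd36, chr5:17835897-17836146, minus strand: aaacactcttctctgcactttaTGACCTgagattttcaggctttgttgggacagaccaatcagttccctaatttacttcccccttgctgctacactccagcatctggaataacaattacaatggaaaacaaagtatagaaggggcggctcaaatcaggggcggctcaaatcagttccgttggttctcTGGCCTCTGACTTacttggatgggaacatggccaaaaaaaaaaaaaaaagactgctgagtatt
Fabp1, chr6:71199629-71199826, plus strand: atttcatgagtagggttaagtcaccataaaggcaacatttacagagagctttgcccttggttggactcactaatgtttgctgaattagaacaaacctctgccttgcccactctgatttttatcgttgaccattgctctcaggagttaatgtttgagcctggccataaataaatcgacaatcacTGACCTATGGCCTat
Slc27a1, the third start, chr8:71570344-71570593, plus strand: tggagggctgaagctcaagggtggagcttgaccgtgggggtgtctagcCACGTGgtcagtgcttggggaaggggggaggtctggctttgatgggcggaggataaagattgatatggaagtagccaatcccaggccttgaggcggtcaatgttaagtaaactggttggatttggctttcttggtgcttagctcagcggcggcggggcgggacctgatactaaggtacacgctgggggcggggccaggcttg
The repeat began 67 bases before the start in Fabp1, with 1 mismatch, and 63 bases before it in Cd36, with 2 mismatches. Both lie on the strand opposite to the gene, so that they read as TGACCTATGGCCT and TGGCCTCTGACTT. The last 52 bases before the RefSeq start of Fabp1 are exonic in GENCODE M21 and are left out, with a further AGGTCA 9 bases before the start. These matches are letters in a sequence, and no binding was measured.

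Control livers differed widely in how much of each transcript they held. Per kilobase of the principal coding transcript, Fabp1 was by far the highest, at 4143 ± 1003 CPM per kilobase (SD, n = 40 control libraries). Slc27a5 was at 417 ± 47.9 and Slc27a2 at 402 ± 90.2, both ahead of Acsl1, the main hepatic acyl-CoA synthetase, at 269 ± 70.4 CPM per kilobase. Acsl5 followed at 97.5 ± 20.7. The others were lower, with Cd36 at 18.9 ± 9.30, Acsl4 at 17.0 ± 4.74, Acsl3 at 9.02 ± 3.17, Slc27a4 at 8.91 ± 0.997 and Slc27a1 at 3.5 ± 0.953 CPM per kilobase. The neighbours in this order whose means differed by less than their SDs were Slc27a5 and Slc27a2, Cd36 and Acsl4, and Acsl3 and Slc27a4. The CPM of the 10 genes together had a median of 6014 in the 36 control libraries of CT12 to CT44 (lowest 3996, highest 8111) and of 7406 in the 36 fasted ones (lowest 4740, highest 11500), and the ranges overlapped.

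The first question was how these genes changed with the removal of food. Averaged over CT12 to CT44, 5 of the 10 genes rose and 5 fell, each at an adjusted p under 0.05 in edgeR's quasi-likelihood test. The genes that rose were Slc27a1, Slc27a2, Cd36, Acsl1 and Slc27a4, and those that fell were Acsl3, Acsl5, Fabp1, Acsl4 and Slc27a5. Fasting moved most of the transcriptome, so 62.5% of all genes tested passed, 29.5% higher and 32.9% lower. The median log2 change was 0.04 over the 10 genes and -0.02 over all genes tested. A change of at least 1.5 times was called for 5 of the 10 (Slc27a1, Slc27a2, Cd36, Acsl1 and Acsl3) and for 2541 of all 21187 genes tested. In no member did the fasted and control libraries of CT12 to CT44 stand fully apart, which they did for 0.0566% of all genes. Where single mice are given below, the time is that of the largest difference of the gene, which favours separation. Separation at a single time was counted over all genes for CT44 only, where 30.1% of them did not overlap.

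**Figure D1:**
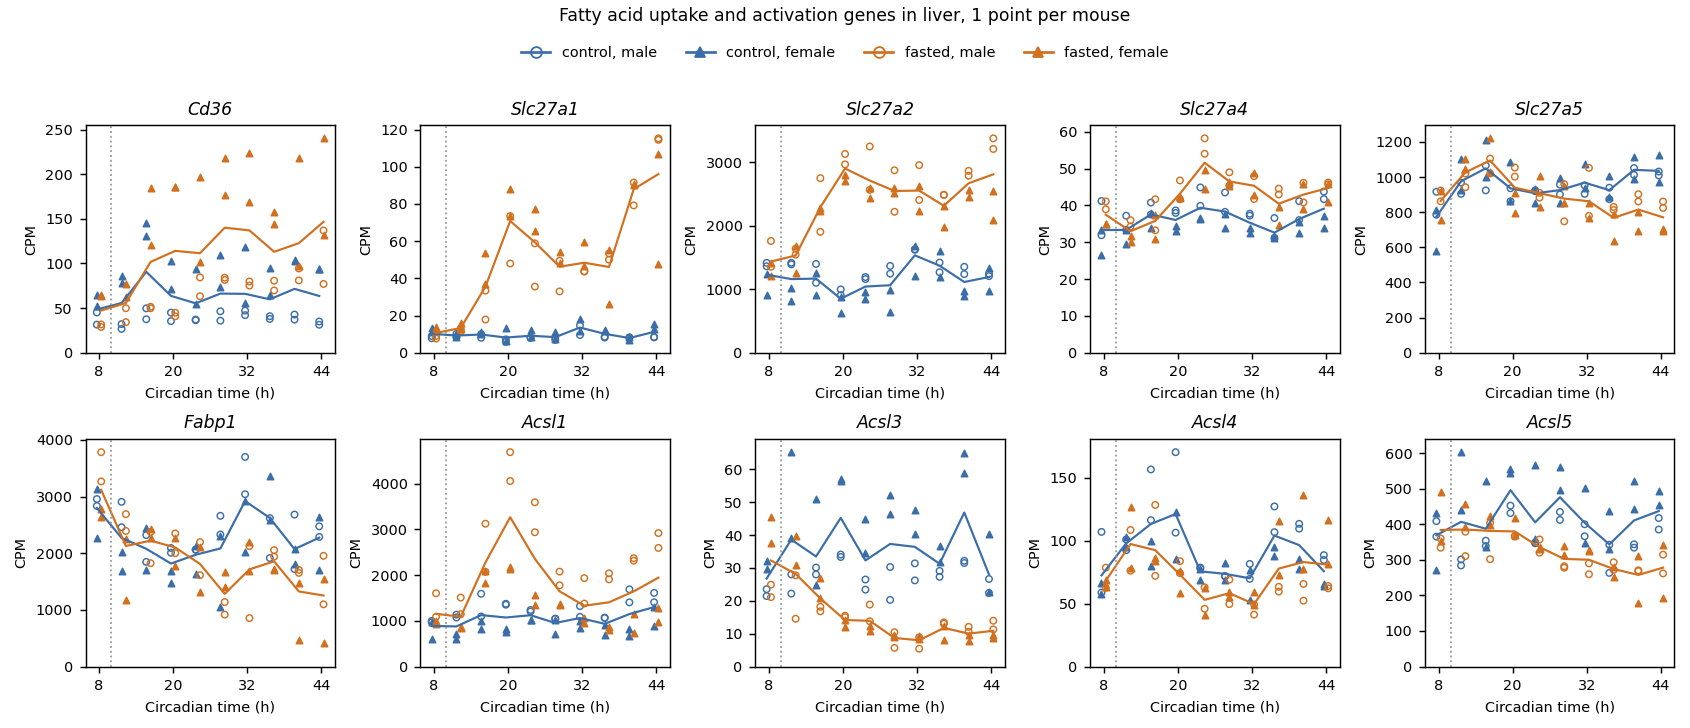
Level of each of the 10 genes in CPM (vertical axis, starting at 0) against circadian time in h, with 1 point per mouse (open circles, males; filled triangles, females), lines through the mean of the 4 mice of a treatment and time, and a dotted line at CT10, when food was removed from the fasted group. Fasted Slc27a1 lies at 79.25 to 91.5 CPM at CT40 against 6.90 to 8.43 in controls, while fasted Acsl3 lies at 7.73 to 12.1 against 31.5 to 64.9.

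Among the uptake genes, Slc27a1, which encodes the fatty acid transporter best known from muscle and fat, rose the most of the 10. Its control libraries lay between 5.86 and 18.4 CPM with a median of 8.49, and its fasted libraries between 11.6 and 115.3 with a median of 51.7. At CT40 the control males were at 8.03 and 8.25 CPM and the control females at 6.90 and 8.43, while the fasted males were at 79.25 and 91.5 and the fasted females at 91.0 and 90.1. The 4 fasted libraries stood well above the 4 controls at that time. The mean log2 change was 2.36 (SE 0.08, edgeR adjusted p = 9.13e-29), or 5.13-fold. Slc27a1 was thereby the least abundant of the 10 per kilobase in controls and no longer so in fasted livers, where its median was 18.5 CPM per kilobase against 3.08 for Acsl3.

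Slc27a2, the very long-chain acyl-CoA synthetase of peroxisomes and the endoplasmic reticulum and a main hepatic transport protein, rose from a median of 1199 CPM (623 to 1673) to 2532 (1262 to 3376). At CT20 the controls were at 907 and 998 CPM in males and 623.0 and 874 in females. The fasted mice were then at 2966 and 3130 in males and 2703 and 2806 in females, again without overlap. Its mean log2 change was 1.10 (SE 0.05, edgeR adjusted p = 3.05e-24).

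Cd36 rose from a median of 52.0 CPM (26.7 to 145) to 89.4 (34.2 to 240.2). The ranges overlapped widely, and they also did so within males (26.7 to 49.75 in controls, 34.2 to 137 in fasted mice) and within females (54.3 to 145 and 62.2 to 240.2). At CT44 the control males were at 31.3 and 35.0 CPM and the fasted males at 137 and 77.1, and the control females were at 93.8 and 94.2 and the fasted females at 132 and 240.2. Within each sex every fasted mouse was above every control mouse at that time. The mean log2 change was 0.79 (SE 0.07, edgeR adjusted p = 8.56e-13). Cd36 is also made by macrophages and endothelial cells, and markers of these cells moved with fasting as well. Of 9 Kupffer cell and macrophage markers, 8 fell and 1 was not called, with a summed level of 305 to 1016 CPM in controls and 232 to 660.3 in fasted livers. Of 8 endothelial markers, 4 rose and 3 fell, with sums of 442 to 658 CPM (median 541) in controls and 450.3 to 745 CPM (median 576) in fasted livers. The part of these cells in the rise of Cd36 was not tested.

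Slc27a4, a transport protein of the endoplasmic reticulum, rose by little, from a median of 36.5 CPM (29.5 to 44.9) to 42.9 (30.0 to 58.2). The log2 change was 0.22 (SE 0.03, edgeR adjusted p = 2.61e-09). Slc27a5, the bile acyl-CoA synthetase of the liver, moved the other way and by the least of the 10, from 954 CPM (851 to 1210) to 872 (638 to 1220), with a log2 change of -0.13 (SE 0.04, edgeR adjusted p = 0.00126). The call of Slc27a5 was lost without male replicate 1 at every time (-0.11, edgeR adjusted p = 0.0775) and in males alone (-0.05, adjusted p = 0.289). The shifts of Slc27a4 and Slc27a5 lie within the range of single mice.

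Fabp1, the cytosolic carrier, fell from a median of 2109 CPM (1049 to 3699) to 1752 (416 to 2690). At CT44 the controls were at 2474 and 2287 CPM in males and 2637 and 1700 in females, and the fasted mice at 1954 and 1098 in males and 416 and 1546 in females. The groups overlapped through 1 fasted male. Its log2 change was -0.38 with the largest SE of the 10 genes, 0.10 (edgeR adjusted p = 0.000532). The call was lost without male replicate 2 at every time (-0.28, edgeR adjusted p = 0.0995) and in females alone (-0.345, adjusted p = 0.0659).

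The 4 acyl-CoA synthetases did not move together. Acsl1, which serves both oxidation and triglyceride synthesis, rose from a median of 1045 CPM (598 to 1690) to 1800 (742 to 4690). At CT20 the control males were at 1353 and 1373 CPM and the fasted males at 4059 and 4690, and the control females were at 750.5 and 816 and the fasted females at 2180 and 2139. No fasted library lay within the control range at CT20, where the difference was largest. The mean log2 change of Acsl1 was 0.71 (SE 0.05, edgeR adjusted p = 3.19e-16).

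Acsl3, the isoform of the endoplasmic reticulum and lipid droplets, fell from a median of 32.1 CPM (20.3 to 65.2) to 12.2 (5.43 to 39.6). At CT32 the controls were at 31.4 and 26.2 CPM in males and 47.7 and 40.4 in females, and the fasted mice at 8.87 and 5.43 in males and 9.23 and 8.45 in females. All 4 fasted livers were below all 4 controls. The mean log2 change was -1.45 (SE 0.07, edgeR adjusted p = 1.71e-23), the largest fall of the 10.

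Acsl5, an isoform of mitochondria and the endoplasmic reticulum, fell from a median of 415 CPM (263 to 603) to 317 (180 to 458), with a log2 change of -0.38 (SE 0.05, edgeR adjusted p = 3.75e-08). Acsl4, which prefers arachidonic acid, fell from 85.3 CPM (53.0 to 170.2) to 67.3 (40.6 to 136), with a log2 change of -0.33 (SE 0.06, edgeR adjusted p = 1.72e-05). For both the ranges of fasted and control mice overlapped. In GENCODE M21 (GRCm38), exons of Acsl1, Acsl5 and Slc27a2 overlap a gene on the opposite strand and those of Acsl3 overlap Utp14b on the same strand, and whether reads were counted by strand is not given in the sources used here. All 10 calls of the mean change were kept without the 2 fasted females that stood apart. In a separate fit they were also kept without the library rich in ribosomal RNA. That library is of CT8, so it enters the mean change only through the shared scaling and spread, and its removal is no check of these calls.

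The single times show when each gene was called. At CT8, before food was removed, 0 of the 10 differed between the groups by the adjusted p of edgeR or of limma, and 2 had an unadjusted p under 0.05 (1.33% of all genes were called by edgeR), and the largest difference was that of Acsl1, 0.37 (SE 0.16) on the log2 scale. At CT12, after 2 h without food, 0 were called by either tool (1.6% of all genes), and 4 had an unadjusted p under 0.05 in edgeR and 3 in limma. At CT16, 4 of the 10 were called (23.4% of all genes), namely Slc27a1, Slc27a2 and Acsl1, which were higher, and Acsl3, which was lower. At CT20, 7 were called (36.6%), with Cd36, Slc27a4 and Acsl4 added. For Cd36 the fasted males were then at 44.81 and 40.85 CPM and the control males at 44.95 and 35.4. The fasted females were at 185.6 and 185.3 CPM and the control females at 71.66 and 102.8. A sex difference at that time alone was not tested. The numbers of genes called were 7 at CT24 (24.1%), 7 at CT28 (21%), 5 at CT32 (17.7%), 7 at CT36 (26.8%), 9 at CT40 (39.9%) and 8 at CT44 (39.4%). Fabp1 was called for the first time at CT40, Acsl5 at CT28 and Slc27a5 at CT36. A first call does not date the start of a response. Fabp1 had a log2 change of -0.70 (SE 0.29) at CT28 (edgeR adjusted p = 0.0767) as well as at CT40 (adjusted p = 0.0495). The first times also depend on the 2 fasted females that stood apart. Without them 6 genes were called at CT40, with Fabp1 (-0.38, edgeR adjusted p = 0.282), Slc27a4 (0.20, adjusted p = 0.0955) and Slc27a5 (-0.29, adjusted p = 0.0564) lost. Fabp1 was then called at CT28 (-0.70, edgeR adjusted p = 0.0208) and CT32 (-0.76, adjusted p = 0.0132) but not at CT44 (-0.56, adjusted p = 0.0933). Slc27a5 was first called at CT44 and Acsl5 already at CT20 (-0.38, edgeR adjusted p = 0.0251), and CT32 had 8 calls, with Acsl4 and Acsl5 also gained. The joint test over the 9 times passed for 10 of 10 genes and for 61.7% of all genes.

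**Figure D2:**
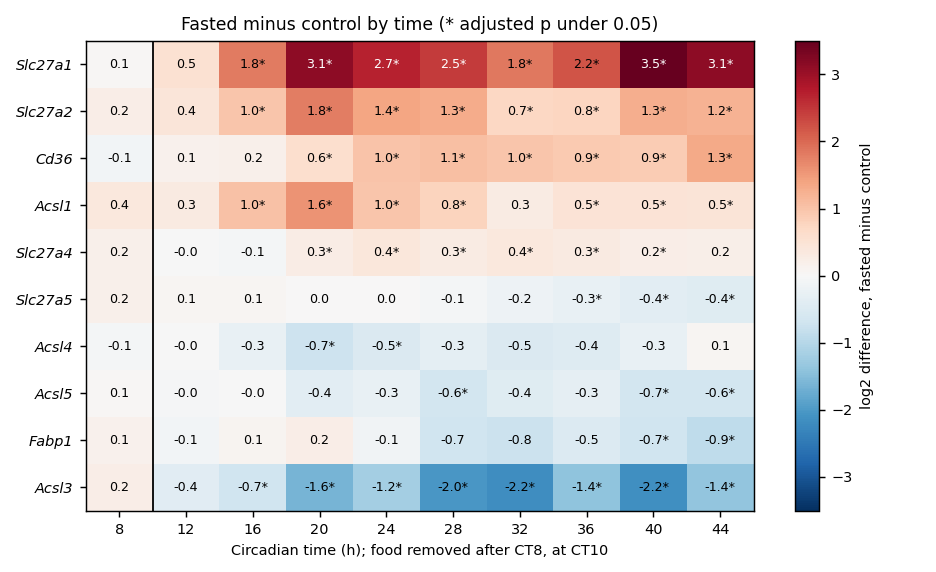
Log2 difference between fasted and control mice (colour, red for higher in fasted) for each gene (rows, ordered by the mean change) at each circadian time in h (columns), with the value in each cell and an asterisk at an edgeR adjusted p under 0.05. No cell of CT8 or CT12 has an asterisk, and Slc27a1 runs from 0.53 at CT12 to 3.48 at CT40 while Acsl3 reaches -2.17 at CT32.

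The shapes of the responses differed. Slc27a1 was higher by 1.81 on the log2 scale at CT16, 3.13 at CT20, 1.84 at CT32 and 3.48 at CT40, so that its difference dipped and rose again. Slc27a2 went from 0.98 at CT16 to 1.78 at CT20, 0.74 at CT32 and 1.28 at CT40. Acsl1 was highest against its controls at CT20, by 1.57. Its difference was smallest at CT32, at 0.29 (edgeR adjusted p = 0.199), and lay at 0.46 to 0.47 from CT36 to CT44. Cd36 was at 0.18 at CT16, 1.01 at CT24 and 1.34 at CT44. Acsl3 was lower at all 9 times and was called at 8 of them. At CT44 the 4 fasted and 4 control libraries did not overlap for 5 of the 10 genes, Slc27a1 and Slc27a2 above and Slc27a5, Acsl3 and Acsl5 below, where 30.1% of all genes did not overlap.

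To compare a short with a long fast at the same phase of the cycle, the difference at CT36, CT40 and CT44 was set against that at CT12, CT16 and CT20, 24 h before. It differed for 8 of the 10 genes, against 21.2% of all genes, with 3 higher and 5 lower in the long fast. Slc27a1 went from a log2 change of 1.82 to 2.93 (difference 1.11, SE 0.18, edgeR adjusted p = 1.65e-05), Cd36 from 0.30 to 1.05 (difference 0.74, SE 0.18, adjusted p = 0.00254) and Slc27a4 from 0.06 to 0.25 (difference 0.19, SE 0.07, adjusted p = 0.0374). Slc27a2 was at 1.06 and 1.08, with a difference of 0.02 (SE 0.12). These are means over times, and the short fast includes CT12, where 0 of the 10 genes were called. From CT12 to CT36, CT16 to CT40 and CT20 to CT44, Slc27a2 went from 0.43 to 0.75, 0.98 to 1.28 and 1.78 to 1.21. Slc27a1 went from 0.53 to 2.20, 1.81 to 3.48 and 3.13 to 3.12. Single pairs of times were not tested. The mean difference between the long and the short fast was negative for the binding protein Fabp1, the transport protein Slc27a5 and 3 of the 4 synthetases. Acsl1 went from 0.98 to 0.47 (difference -0.51, SE 0.13, adjusted p = 0.00294), Acsl3 from -0.91 to -1.65 (difference -0.74, SE 0.16, adjusted p = 0.000697) and Fabp1 from 0.07 to -0.69 (difference -0.77, SE 0.23, adjusted p = 0.0153). Slc27a5 and Acsl5 each had a difference of -0.40, with SEs of 0.09 and 0.13 and edgeR adjusted p-values of 0.000665 and 0.0242. Acsl4 did not pass, at 0.12 (SE 0.16). Without the 2 fasted females that stood apart, 6 genes were called, with Slc27a4 (0.17, edgeR adjusted p = 0.0959) and Acsl5 (-0.27, adjusted p = 0.11) lost. With the males alone or the females alone, 3 genes were called.

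Sex shifted 8 of the 10 genes in the control livers, against 39.2% of all genes. Cd36 differed the most. Over the 20 control males it lay between 26.7 and 49.75 CPM (median 37.3) and over the 20 control females between 52.5 and 145 (median 93.6), so that the sexes did not overlap. How many of all genes separate the sexes in this way was not counted. The log2 difference, female minus male, was 1.19 (SE 0.10, edgeR adjusted p = 1.89e-13). Acsl3 was higher in females by 0.65 (SE 0.09, adjusted p = 3.71e-08), Slc27a1 by 0.34 (SE 0.10, adjusted p = 0.00607) and Acsl5 by 0.33 (SE 0.07, adjusted p = 0.000217). Acsl1 was lower in females by 0.53 on the log2 scale (-0.53, SE 0.07, adjusted p = 3.05e-08), with male controls at 968 to 1690 CPM and female controls at 598 to 1298. Slc27a2 differed by -0.33, Acsl4 by -0.29 and Slc27a4 by -0.19. Fabp1 (-0.21, SE 0.13) and Slc27a5 (0.03, SE 0.05) did not pass.

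Markers of other cells moved with sex as well. All 9 Kupffer cell and macrophage markers, 7 of 8 endothelial markers and 6 of 7 stellate cell markers were higher in control females. Their summed levels in controls of CT12 to CT44 were 426 to 1016 against 305 to 629.9 CPM for macrophages, 538 to 658 against 442 to 543 for endothelial cells, and 275 to 358 against 195 to 264 for stellate cells, females given first. The median log2 sex differences of the 3 lists were 0.53, 0.25 and 0.44, and the macrophage marker Marco had the largest among them, 1.26. Of the adipocyte markers, Plin1, Retn and Lep had too few counts to be tested, and the sum of the 5 lay between 0 and 2.57 CPM in controls. The part of these cells in the sex difference of Cd36 was not tested.

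Fasting itself acted differently in the sexes for 3 of the 10 genes, against 12.4% of all genes. Acsl3 fell by 1.11 on the log2 scale in males and by 1.80 in females, a difference of -0.69 (SE 0.13, edgeR adjusted p = 0.000361). Fasted males of CT12 to CT44 lay between 5.43 and 27.8 CPM and fasted females between 7.73 and 39.6, with medians of 13.6 and 10.2. The levels of the sexes were thus closer in fasted than in control livers, where the medians were 28 and 45.6. Acsl1 rose by 0.89 in males and 0.52 in females (difference -0.37, SE 0.10, adjusted p = 0.0137). Its fasted medians were 2196 CPM in males and 1217 in females. Acsl4 fell by 0.57 in males and had a log2 change of -0.09 in females (SE 0.09), with a difference of 0.49 (SE 0.13, edgeR adjusted p = 0.00915). Cd36 rose by 0.82 in males and 0.76 in females, with a difference of -0.07 (SE 0.15) that did not pass. Fewer of the 3 calls were kept when either male replicate was left out at every time. That leaves 1 male per group, so such fits cannot tell a dependence on the males from a poorer estimate of the spread. The difference of Acsl3 was -0.74 without male replicate 2.

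**Figure D3:**
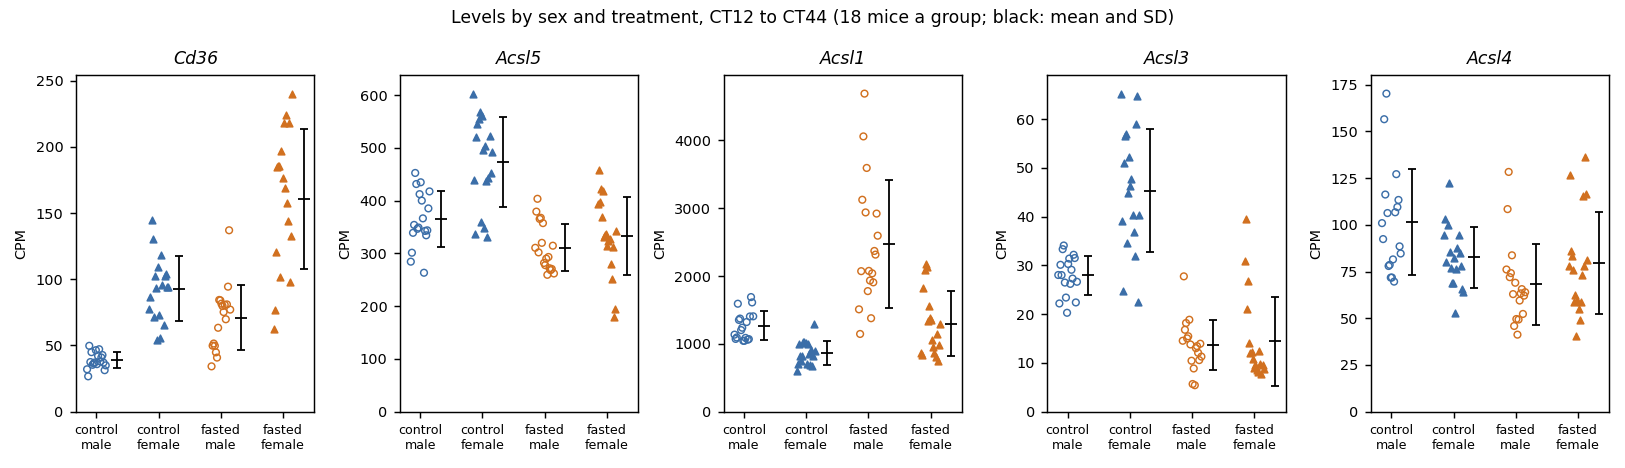
Level in CPM (vertical axis, starting at 0) of 5 genes in the mice of CT12 to CT44, 18 in each group of sex and treatment, with 1 point per mouse and the mean and SD in black. Control females lie above control males without overlap for Cd36 (54.3 to 145 against 26.7 to 49.75 CPM), and fasted males have the highest Acsl1 levels, up to 4690 CPM. How many of all genes separate the sexes was not counted.

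The sampling over the cycle also allowed a look at 24 h rhythms. In the 40 control libraries, 6 of the 10 genes followed a cosine with a period of 24 h, against 41.8% of all genes. The cosine of Acsl4 was the largest, with 0.65 between peak and trough (log2) and its top at CT16.2 (edgeR adjusted p = 0.000321). Fabp1 (0.47, peak at CT9.06) and Slc27a2 (0.43, CT9.94) were highest late in the subjective day. Acsl1 (0.35) peaked at CT21.0 and Slc27a4 (0.225) at CT22.9, and Slc27a5 (0.24) at CT17.2. Cd36, Slc27a1, Acsl3 and Acsl5 were not called, with adjusted p-values from 0.0691 to 0.382 in edgeR. With the males alone 6 genes were called and with the females alone 0 (1 at an unadjusted p under 0.05 in edgeR), and the difference between the sexes was not tested.

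In the fasted mice the cosine differed from that of the controls for 4 of the 10 genes, against 23.2% of all genes. For Slc27a1 peak and trough lay 1.27 apart (log2) in fasted mice, the top being at CT21.8, and 0.31 apart in controls (edgeR adjusted p = 4.36e-05 for the difference). Slc27a2 had similar sizes, 0.47 and 0.49, but its peak lay at CT23.2 in fasted and at CT9.63 in control mice (adjusted p = 1.79e-05). Acsl1 peaked at CT21.5 in fasted and CT21.2 in control mice, with sizes of 1.09 and 0.315 (adjusted p = 0.005). Slc27a4 passed more narrowly (0.43 against 0.22, edgeR adjusted p = 0.0204). The 9 times cover less than 2 cycles, and a response to the start of the fast and a rhythm cannot be told apart fully over them. Acsl4 kept a peak near CT15.6 in fasted and CT16.1 in control mice, with sizes of 0.82 and 0.60 and no call for the difference.

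Counts on exon bins showed whether parts of a transcript changed differently from the gene. The test passed for 6 of the 10 genes, against 14.7% of the genes tested, by edgeR's diffSpliceDGE with a Simes p per gene. They were Acsl1, Slc27a2, Slc27a5, Slc27a1, Acsl5 and Cd36, and those not called were Fabp1, Slc27a4, Acsl3 and Acsl4. The bins carry numbers without positions, and the bins that passed were minor parts of their genes. In Acsl1, bin 11 held 0.11% ± 0.106 (SD, n = 36) of the counts of the gene in control and 0.0372% ± 0.0545 in fasted mice, a log2 change of -1.19 relative to the gene (edgeR adjusted p = 9.91e-48). Bin 30 of Acsl1 went the other way, from 0.0962% to 0.162% (0.54), and bin 3 from 0.376% to 0.268% (-0.36). In Slc27a2, bins 3 and 4 rose from 0.0227% to 0.0461% and from 0.0136% to 0.0268%, and bin 12 from 1.17% ± 0.356 to 1.63% ± 0.193 (0.35, edgeR adjusted p = 1.08e-09), the largest share among the bins that passed.

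In Slc27a1, bins 3, 4 and 5 rose by 0.92, 0.68 and 0.87 on the log2 scale relative to the gene, from means of 5.36, 4.33 and 2.47 counts per control library. In Acsl5, bins 3 (-0.28) and 12 (-0.44) fell relative to the gene, as did bin 13 of Slc27a5 (-0.36) and bins 22 (-0.40) and 23 (-0.39) of Cd36. Cd36 was not called by the F test of the gene (edgeR adjusted p = 0.178) or without CT40 (adjusted p = 0.101). When bins under 10 counts in any library were dropped, 4 genes were called, and Slc27a1 and Slc27a5 were not.

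The wider set of genes for fatty acid transport, binding and acyl-CoA synthesis was mixed like the 10 genes. Of 30 tested among 38 listed, 13 rose and 12 fell, with a median log2 change of -0.08 against -0.02 over all genes. The largest rises were in Fabp2 (0.95), Acss3 (0.66), Fabp4 (0.54) and Acsm3 (0.53). The largest falls were in the binding protein Fabp5 (-2.98), in Fabp12, which was near 0.1 CPM (-2.53), in the acetyl-CoA synthetase Acss2 (-2.10) and in Acsm2 (-1.46). Fabp5 had a mean of 50.6 CPM in controls and 12.4 in fasted mice.

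Genes for the next step, the entry of acyl-CoA into mitochondria and peroxisomes, mostly rose, 8 of 12, with 2 falls. Of all genes tested, 29.5% rose and 32.9% fell. The carnitine acyltransferases Crat (1.61), Cpt1b (1.5) and Cpt1a (1.46), the last rate-limiting for mitochondrial entry, and the carnitine carrier Slc25a20 (1.02) led. Cpt1b was very low, with means of 0.34 CPM in controls and 1.04 in fasted livers, against 402 and 1063 for Cpt1a. The falls were in Acaca (-1.38) and Acacb (-0.56), which make the malonyl-CoA that inhibits Cpt1a. Of the PPAR-alpha target genes, 16 of 16 rose, with a median of 1.80. This list holds Fgf21, whose rise was also used to check the treatment. The largest changes were in Cyp4a14 (4.91), Fgf21 (3.95), Cyp4a10 (3.63) and Acot1 (2.98), of which all but Fgf21 have close copies in the genome that could share reads. Among 18 transcriptional regulators, 11 rose and 5 fell. Averaged over the times, Ppargc1a (1.73), Ppargc1b (1.00), Nr1d1 (0.96) and Nr1i3 (0.84) had the largest positive log2 changes. Srebf1 (-3.13), Ppard (-1.14), Srebf2 (-0.61) and Nfe2l2 (-0.21) fell the most. The mean level of Nr1d1 was 43.8 CPM in controls and 43 in fasted livers. Its value is thus a mean of log2 differences of single times, not a higher mean level. These lists were drawn up with results of these data known and share no gene with the 10.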

How the data were processed

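Livers of control and fasted mice were measured by stranded RNA sequencing at 10 circadian times. The authors deposited raw counts per gene and raw counts per exon bin, whole numbers without normalization, and the labels' processing notes name Trimmomatic, HISAT2, DESeq2 and GRCm39 with no versions. The counting program is not given in the sources used here. Another deposited table, the gene counts divided by factors per library, was not used. The article is a review without methods, so that no test was taken from it.

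Counts were fitted with edgeR 4.0.16 in R 4.3.3 (filterByExpr, TMM scaling, quasi-likelihood tests) with 1 mean per group of treatment, time and sex over all 80 libraries. Benjamini–Hochberg adjustment was made over all genes tested, and adjusted p-values under 0.05 were called. The mean change weighs CT12 to CT44 and both sexes equally, and the SE is the log2 change divided by the square root of its F value. Rhythms were fitted as a cosine of 24 h with sex in the 40 controls, and with sex and a linear change per treatment in the 72 libraries of CT12 to CT44. CPM values were scaled by TMM, and log2 CPM of single libraries had a prior count of 2. Exon usage was tested with diffSpliceDGE. For exon counts, 77 of 80 columns were matched best by the library of their own name and 3, of fasted CT40, by another, so fasted CT40 was 1 group without sex there. Entries that name no exon made up 8.28% to 25.9% of a column there and were left out. Depth per library had a median of 42303883 counts. Nothing beyond the labels says how samples were drawn, and each library is a separate mouse. Scripts were tested on simulated data.

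Alternatives were DESeq2 1.42.0 scaling and Wald test, limma 3.58.1 with voom, no filter, single sexes, a minimum change, leaving out replicates and times, and replicate numbers as a block. Deviations of the control and fasted mice of a time, sex and number were correlated over 20 pairs. The correlations were -0.0564 to 0.249, and 1 pair was over 0.1. They cannot show whether a number has a shared meaning across times. The members, the gene lists and the tests were chosen with earlier results of these data known. All 10 genes are described throughout. Of each list the up to 4 largest rises and falls that passed are named, and of the exon test up to 3 bins per gene. The hepatocyte marker Tf was not matched by symbol. Positions are those of GENCODE M21 on GRCm38, and no coordinate was taken to GRCm39.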

Additional observations from a re-analysis of the deposited data

Results flagged for a closer look

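A library that stood far from the other 3 of its treatment and time, by Dixon's test on log2 CPM at the 95% level, was found in 20 of 200 groups of gene, treatment and time. Chance alone gives about 10, since 1 in 20 groups is marked without any cause. The library with much ribosomal RNA, control CT8 female 2, was low for Acsl1 (9.24, others 9.92 to 9.96 on the log2 CPM scale). The 2 fasted females that stood apart as whole libraries appear here too. Fasted CT40 female 2 was low for Fabp1 (8.87, others 10.53 to 10.74), and fasted CT44 female 1 was low for Slc27a1 (5.58, others 6.74 to 6.85).

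Control CT24 female 2 was marked for 4 genes, being low for Fabp1 (10.68), Slc27a5 (9.74) and Acsl4 (6.10) and high for Slc27a1 (3.59, others 3.01 to 3.06). Control CT28 female 2 was low for Fabp1 (10.03) and Acsl1 (9.47, others 9.99 to 10.03). Slc27a1 was low in fasted CT36 female 2 (4.70) and in fasted CT40 male 1 (6.31), and Slc27a2 was low in control CT32 female 2 (10.24). Slc27a4 was high in control CT36 male 1 (5.19) and fasted CT20 male 1 (5.55) and low in fasted CT44 female 2 (5.36). Acsl3 was low in fasted CT32 male 2 (2.45) and fasted CT36 female 1 (3.04). Acsl5 was high in control CT16 female 2 (9.02), control CT24 female 1 (9.15) and fasted CT20 female 2 (8.71).

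Differences between groups in the size of the fasting effect were found by edgeR's test of the difference itself. Between the sexes, female minus male, they were -0.37 for Acsl1, -0.69 for Acsl3 and 0.49 for Acsl4 on the log2 scale. Between the long and the short fast they were 0.74 for Cd36, 1.11 for Slc27a1, 0.19 for Slc27a4, -0.77 for Fabp1, -0.40 for Slc27a5, -0.51 for Acsl1, -0.74 for Acsl3 and -0.40 for Acsl5. Both sets are described in the text above with their errors.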

How the results depend on the processing

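Of the 10 genes called for the mean change, 5 were called for a change of at least 1.5 times (2541 genes in all against 13233), 9 in males alone, where Slc27a5 was lost, and 8 in females alone, where Fabp1 and Acsl4 were lost. Leaving out 1 replicate number of a sex at every time, which leaves 1 mouse of that sex per group that is assumed to vary like the others, gave 9 to 10 calls for the mean change (Slc27a5 was lost without male replicate 1 and Fabp1 without male replicate 2), 35 to 51 for single times (54 with all mice), 3 to 7 for the long against the short fast (8), 0 to 4 for the sex difference of the fasting effect (3), 5 to 9 for the sex difference in controls (8), 2 to 7 for the control rhythm (6), 2 to 3 for the rhythm difference (4) and 3 to 5 for exon usage (6). Without male replicate 1 the long against the short fast was called for 1738 genes in all and without male replicate 2 for 1449 (4483 with all mice), and the sex difference of the fasting effect for 238 and 360 genes (2621). In males alone and females alone, the long against the short fast was called for 3 members each (1819 and 2717 genes in all). The control rhythm was called for 0 members in females alone (5104 genes in all in males and 4692 in females, against 8417), and the rhythm difference for 1 member in females alone (2354 genes in males, 1560 in females and 2635 without male replicate 2, against 4858). Exon usage with at least 10 counts per bin was called for 993 genes in all, and for 921 to 1213 without a replicate, against 2014.

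The sign turned for uncalled values only. For the long against the short fast Slc27a2 (0.019) was -0.012 without male replicate 1, -0.033 without female replicate 2 (range -0.033 to 0.08) and -0.174 in females alone, and Acsl4 (0.122) was -0.003 without male replicate 1 (range -0.003 to 0.251) and -0.329 in males alone. For the sex difference of the fasting effect Cd36 (-0.065) was 0.003 without male replicate 2, 0.058 without female replicate 1 (range -0.212 to 0.058) and 0.03 without the 2 fasted females that stood apart, and Fabp1 (0.072) was -0.13 and -0.042 without male and female replicate 2 (range -0.13 to 0.329). With the replicate block the calls numbered 10 for the mean change, 54 for single times and 8 for the long against the short fast. They numbered 3 and 8 for the sex differences, 6 and 4 for the rhythms, and 5 for exon usage without CT40. The replicate numbers showed little pairing of control and fasted mice of the same time and sex. Leaving out the library rich in ribosomal RNA or the 2 fasted females was chosen after seeing the data. Over all alternatives, 1208 of the values of single genes kept their direction and call, 148 lost the call, 14 gained it and 10 turned, and the causes were not tested.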

Other observations

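Markers of other liver cells that are not given in full above moved with fasting as follows, by edgeR's adjusted p over all genes. Of 7 hepatocyte markers tested, 4 rose, namely the apolipoprotein Apoa1 (0.81 on the log2 scale), the regulator Hnf4a (0.41), Ahsg (0.11) and Alb (0.10), and 1 fell, the thyroxine carrier Ttr (-0.48). Of 7 stellate cell markers, Dcn rose (0.12) and 4 fell, the collagen gene Col1a1 (-1.05), the retinol esterifying enzyme Lrat (-0.83), Pdgfrb (-0.38) and Reln (-0.34). Of 5 cholangiocyte markers, 4 fell, Spp1 (-0.86), Krt19 (-0.82), Krt7 (-0.46) and Epcam (-0.23). Of 6 blood cell markers, 3 fell, the erythroid haem enzyme Alas2 (-0.86), Cd79a (-0.46) and Ptprc (-0.41), while the haemoglobin genes Hba-a1 (-0.17) and Hbb-bs (-0.11) did not pass.

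The endothelial marker Lyve1 stood apart from the rest of its list. Its mean level was 8.20 CPM in controls and 25.2 in fasted livers (log2 change 1.57, SE 0.14), whereas Stab2, another sinusoidal marker, was at 103 and 101 CPM (-0.03) and did not pass. Among the macrophage markers the largest fall was that of Adgre1, by 0.67 on the log2 scale.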
